A study of Mus musculus with 12 samples.

Results

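Ribosomal protein pseudogenes were taken as the genes of the count table whose mouse symbol is that of a ribosomal protein gene followed by -ps, with or without a number, whose annotated type is a pseudogene, and whose estimated counts summed to 10 or more over the 12 libraries. This gave 118 pseudogenes out of 305 with such a symbol in a table of 56065 genes. The other 187 comprised 109 that were at 0 in every library and 78 with a summed count above 0 and under the minimum. The 118 were thus selected on their summed count, so their detection is not a result. The lowest summed counts inside the limit were 11.3 for Rpl36-ps2, 11.2 for Rpl9-ps4 and 10.2 for Rps15a-ps3, and the highest outside it were 9.78 for Rpl34-ps1, 9.49 for Rps15a-ps5 and 9.22 for Rps19-ps4.

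Every cell builds cytosolic ribosomes from a fixed set of large- and small-subunit proteins, and demand for them is high in exocrine gland cells that secrete much protein. In mammals most of these proteins are encoded by a single active gene with introns, called the parent gene below. Spliced messenger RNAs of parent genes have been copied back into the genome many times, leaving intron-free processed pseudogenes, most of them without a promoter of their own and many so close to the parent that short reads from the 2 are alike.

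The data are bulk RNA-sequencing of the whole submandibular gland of mice aged 8 weeks. The 4 groups were wild-type C57BL/6J females, females of strain C57BL/6J-Pou2f3em1Cbwi/J (Pou2f3-/- below), wild-type males and Pou2f3-/- males, with 3 mice in each group and 1 library per mouse. Pou2f3 encodes the transcription factor that tuft cells, rare chemosensory epithelial cells, need in order to form, and the study compared glands with and without it in both sexes. The null allele is carried by all cells of the animal, the 2 genotypes came from a supplier as separate strains, and RNA of all cell types of the gland was pooled, so that fewer cells of a type and less RNA per cell cannot be told apart.

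Pou2f3 itself was at the detection limit, with 0, 1 and 2 estimated counts in wild-type females and 0 in each Pou2f3-/- female. In males the values were 0, 1 and 10 in wild type and 0, 1 and 3 in Pou2f3-/-, so it gave no check of the labels. Library totals ran from 47032175 to 67882207 counts. Marker lists of gland cell types moved with the groups, given here as ranges of summed CPM, counts scaled to an equal library size. Acinar markers were at 1830 to 5283 in wild-type females, 1901 to 2413 in Pou2f3-/- females, 834 to 959 in wild-type males and 536 to 816 in Pou2f3-/- males. Ductal markers were at 4432 to 8254, 4801 to 8888, 40277 to 69427 and 51886 to 66668 in the same order. Myoepithelial markers were at 105 to 140.3 in wild-type females and 80.3 to 97.3 in Pou2f3-/- females, without overlap, and at 300.04 to 369 and 228 to 329.6 in the male groups. Between wild-type females and males, lymphocyte markers (13.9 to 41.6 against 9.81 to 11.2), adipocyte markers (0.836 to 18.4 against 0.173 to 0.271) and the share of mitochondrial counts (0.875 to 1.04% against 1.11 to 1.35%) did not overlap either. Between wild-type and Pou2f3-/- males, macrophage markers did not overlap (28.0 to 33.3 against 35.4 to 52.3). Nor did their adipocyte markers (0.173 to 0.271 against 0.807 to 17.0) or mitochondrial shares (1.11 to 1.35% against 0.723 to 0.804%). Wild-type and Pou2f3-/- females also stood apart in the share of coding counts (57.6 to 65.5% against 52.1 to 56.2%). Their genes detected were 20775 to 22506 and 22933 to 23601. The part of cell composition and of these measures in the genotype and sex differences below was not tested. The 20 most abundant genes took 77.2 to 80.0% of the counts in wild-type females and 72.7 to 76.0% in Pou2f3-/- females, against 53.2 to 62.9% in males, and the trimmed mean of M values (TMM) factors that correct for such differences were 0.625 to 0.759, 0.902 to 1.03 and 1.04 to 1.45 in turn. On library totals without these factors, the median of all genes tested moved from 0.03 to 0.53 (log2) between Pou2f3-/- and wild-type females and from 0.06 to 0.95 between wild-type males and females. All fold changes below are therefore relative to most other genes, and values on library totals stand beside the main results.

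The 118 pseudogenes derive from 42 parent genes, 64 of them from large-subunit and 54 from small-subunit proteins. The largest families were those of Rpl31 with 8 members, Rpsa and Rpl17 with 7 each, and Rpl21 and Rps12 with 6 each, while 10 parents had 1 member. All 118 are annotated as a single exon, 97 as processed and 21 as transcribed processed pseudogenes, with lengths of 311 to 1214 bases. They lie on 20 chromosomes, 9 of them on the X. Other genes of the table overlap 59 of them, and in 11 cases an exon on the same strand does.

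Aligned to the parent's transcript, the pseudogenes had a median identity of 98.9%, from 85.1 to 100%, and 103 of them covered at least 95% of its coding part. A reading frame open over at least 95% of the parent's codons was kept in 68, whereas 35 had an early stop codon and 24 a frameshift. Each parent was represented by a single annotated transcript, and these counts depend on that choice. Rps12-ps3, without a substitution, covered 85.9% of the coding part taken for Rps12 and was not counted as open. Rpl13-ps1 and Rpl18-ps1 aligned to their parent at fewer than 100 bases on the annotated strand and were left out of these counts. Rps6-ps4 on chromosome 2, whose parent Rps6 encodes a small-subunit protein phosphorylated in growth signalling, shows how close the copies can be. Its first 90 bases (chr2:75022077-75022166, minus strand, GRCm39, as for all positions here) are shown because the parent's coding sequence has exactly the same letters there.
Rps6-ps4: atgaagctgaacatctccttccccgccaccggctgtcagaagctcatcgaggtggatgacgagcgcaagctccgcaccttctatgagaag
All 750 bases of this pseudogene equal the coding part of Rps6. In this pseudogene and 7 more, Rps23-ps1, Rpl31-ps8, Rpl28-ps1, Rps16-ps2, Rps12-ps3, Rpl36a-ps2 and Rpl10a-ps1, the alignment held no substitution, and every stretch of 100 bases, the length of a read, also occurs in a transcript of the parent.

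Other members differ from their parent, and for Rps27a-ps2, Rpl10-ps6, Rpl35a-ps2 and Rpl7a-ps3 the 90 coding bases with the most differences are shown beside those of the parent, with differing bases in capitals. Rps27a-ps2 (chr9:83291998-83292087, plus strand) is the most abundant member with a substitution and has only 1. Its parent encodes a fusion of ubiquitin with a small-subunit protein.
Rps27a-ps2: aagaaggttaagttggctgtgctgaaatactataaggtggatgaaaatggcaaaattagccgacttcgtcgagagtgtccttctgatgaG
Rps27a: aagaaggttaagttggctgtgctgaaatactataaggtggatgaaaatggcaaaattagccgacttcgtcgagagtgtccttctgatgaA
Rpl10-ps6 (chr19:37272739-37272828, minus strand) has 1 substitution, which replaces a sense codon by a stop codon after 152 of 214 codons.
Rpl10-ps6: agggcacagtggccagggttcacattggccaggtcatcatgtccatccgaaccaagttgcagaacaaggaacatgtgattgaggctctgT
Rpl10: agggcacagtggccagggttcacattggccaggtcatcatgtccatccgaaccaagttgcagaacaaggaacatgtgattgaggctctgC
Rpl35a-ps2 (chr1:181069730-181069819, minus strand) has 1 substitution and keeps its reading frame.
Rpl35a-ps2: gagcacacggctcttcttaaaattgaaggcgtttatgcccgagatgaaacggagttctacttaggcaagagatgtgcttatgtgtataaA
Rpl35a: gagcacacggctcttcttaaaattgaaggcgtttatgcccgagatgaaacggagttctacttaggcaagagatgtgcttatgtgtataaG
Rpl7a-ps3 (chr15:36308560-36308649, minus strand) has 12 substitutions and an open frame.
Rpl7a-ps3: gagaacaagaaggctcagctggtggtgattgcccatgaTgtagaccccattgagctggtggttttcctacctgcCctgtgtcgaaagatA
Rpl7a: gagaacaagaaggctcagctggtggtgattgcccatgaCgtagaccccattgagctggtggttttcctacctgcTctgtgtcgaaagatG

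Counts were unevenly spread over the 118 pseudogenes. They summed to 165499 counts over all libraries, and the 8 pseudogenes without a substitution held 89.2% of them. The 108 with at least 1 substitution held 10.7%. In 61 pseudogenes, at least 50% of the 100-base stretches occur in no other gene of the table, and these 61 together held 1.47% of the counts. The 7 pseudogenes without any 100-base stretch in another gene held 0.125%. Pseudogenes with an open frame, as defined above, held 91.9%. The plot of counts against shared sequence shows this concentration at the right edge.

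**Figure D1:**
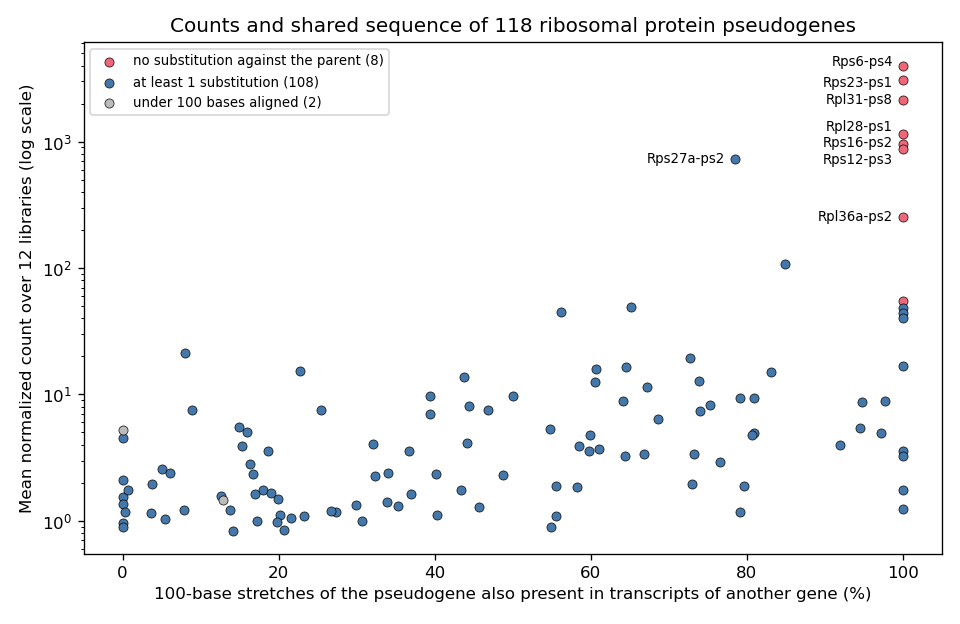
Each point is 1 of the 118 pseudogenes, with the share of its 100-base stretches found in transcripts of another gene on the x axis (%) and its mean normalized count over 12 libraries on the y axis (log scale), coloured by whether its alignment to the parent holds a substitution. Of the 8 pseudogenes with the highest mean, 7 sit at 100% shared sequence, and Rps27a-ps2, the only one of them with a substitution, sits at 78.5%.

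A low-count filter based on all 12 libraries kept 39 of the 118 for testing, with 98.1% of their counts, and 79 were not tested. Of the 39, 10 passed only through the libraries of a certain group, so that counts of calls over the 39 describe them and do not stand for all 118. Of all 118, 36 were above 0 in every library, and 87 had fewer than 100 counts in total.

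In females, 9 of the 39 tested pseudogenes passed the test between Pou2f3-/- and wild type, 3 of them higher and 6 lower. Without wild-type female 3, 5 passed. Here and below, counts of pseudogenes or parents called with a library left out stand without the share of all genes called in that setting. They show only how the number of calls moved and are no result about the pseudogenes. Of the 6 lower, Rps2-ps10 and Rpl7a-ps3 were kept by the filter only with the group where they were highest, and their p-values support nothing. Of all 17893 genes tested, 17.6% were higher, 19.3% lower and 36.9% called in either direction, and edgeR's quasi-likelihood test at an adjusted p of 0.05 was used throughout. The median log2 fold change of the 39 was -0.33, beside 0.03 over all genes, and on library totals it turned to 0.18, beside 0.53. The 42 parents gave a median of -0.65 (-0.15 on library totals), with 38 of 42 lower and 0 higher, and the list of 79 cytosolic ribosomal protein genes gave -0.66, with 71 lower and 0 higher. Of 9 listed coding paralogs, such as Rps27l and Rpl22l1, 6 were tested and 5 were lower, with a median of -0.80. Pseudogenes of other gene families with the same kind of symbol had a median of 1.06, with 18 of 58 tested higher and 3 lower, and pseudogenes of any kind one of 1.02, with 183 of 559 higher and 19 lower. The share of counts in lncRNA genes moved with the genotype in females too, from 0.445 to 0.837% in wild type to 1.24 to 1.46% in Pou2f3-/-, and its part in these results was not tested.

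The 4 lower calls with the highest counts were copies without a substitution. Rps6-ps4 had normalized counts of 4570, 5191 and 5719 in wild-type females and of 3301, 3428 and 3182 in Pou2f3-/- females. Among males it was at 3657, 3773 and 3425 in wild type and 4003, 3540 and 4077 in Pou2f3-/-. Wild-type females were above every other library, and the male groups overlapped. In females it fell by 0.64 on the log2 scale (SE 0.10, adjusted p = 0.00065), and Rps6 fell by 0.72 (SE 0.16, adjusted p = 0.0045). In males its log2 fold change was 0.10 (SE 0.10, adjusted p = 0.78).

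Rps23-ps1 copies Rps23, which encodes a protein near the decoding centre of the small subunit. Its normalized counts were 3405, 4060 and 5521 in wild-type females and 2119, 2677 and 2451 in Pou2f3-/- females. Males gave 2179, 3531 and 2413 in wild type and 2818.5, 2836 and 2929 in Pou2f3-/-. The female groups did not overlap, and the highest wild-type male lay within the range of wild-type females. It fell by 0.84 in females (SE 0.19, adjusted p = 0.0045), beside a fall by 0.68 of Rps23 (adjusted p = 0.014).

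Rpl31-ps8, a copy of the large-subunit gene Rpl31, had 2408, 2683 and 3080 normalized counts in wild-type females and 1665, 2107 and 1975 in Pou2f3-/- females. Males gave 1873, 2432 and 1589 in wild type and 1957, 1986 and 1958 in Pou2f3-/-. Wild-type females were again highest, with 1 wild-type male inside their range. The female difference was a fall by 0.51 (SE 0.15, adjusted p = 0.015), and Rpl31 fell by 0.65 (adjusted p = 0.0047). Without wild-type female 3 or Pou2f3-/- female 1 the call of Rpl31-ps8 was lost, with adjusted p-values of up to 0.051.

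Rps12-ps3 passed while its parent did not, and the difference between them was not tested. All 297 of its 100-base stretches occur in Rps12 and also in the pseudogene Rps12l1. It lies within an intron of Pdzd8 on the opposite strand, and Pdzd8 fell by 0.35 in females (adjusted p = 0.0057). Rps12-ps3 had 981, 886 and 1001 normalized counts in wild-type females and 477, 746 and 685 in Pou2f3-/- females. The male libraries were at 870, 1147 and 996 in wild type and 764, 1035 and 971 in Pou2f3-/-. Only Pou2f3-/- females stood below the rest. It fell by 0.59 (SE 0.17, adjusted p = 0.015), while Rps12 gave -0.21 (SE 0.13, adjusted p = 0.24). On library totals these log2 fold changes were -0.13 for Rps6-ps4, -0.32 for Rps23-ps1, -0.00 for Rpl31-ps8 and -0.10 for Rps12-ps3, with the median gene at 0.53.

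Among the other abundant copies, Rpl28-ps1 gave -0.02 (SE 0.22, adjusted p = 0.96) in females while Rpl28 fell by 0.53 (adjusted p = 0.0091). Its normalized counts were 608, 1263 and 1117 in wild-type females and 1142, 966 and 834 in Pou2f3-/- females. Rps16-ps2 gave -0.33 (SE 0.26, adjusted p = 0.34) while Rps16 fell by 0.93 (adjusted p = 0.00043). Rpl36a-ps2 gave -0.65 (SE 0.29, adjusted p = 0.093), beside a fall by 0.40 of Rpl36a (adjusted p = 0.019). The wild-type and Pou2f3-/- females overlapped in all 3 of these pseudogenes. Rpl36a-ps2 lies within an intron of Ddah1 on the same strand, and Ddah1 fell by 0.61 (adjusted p = 0.0049).

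**Figure D2:**
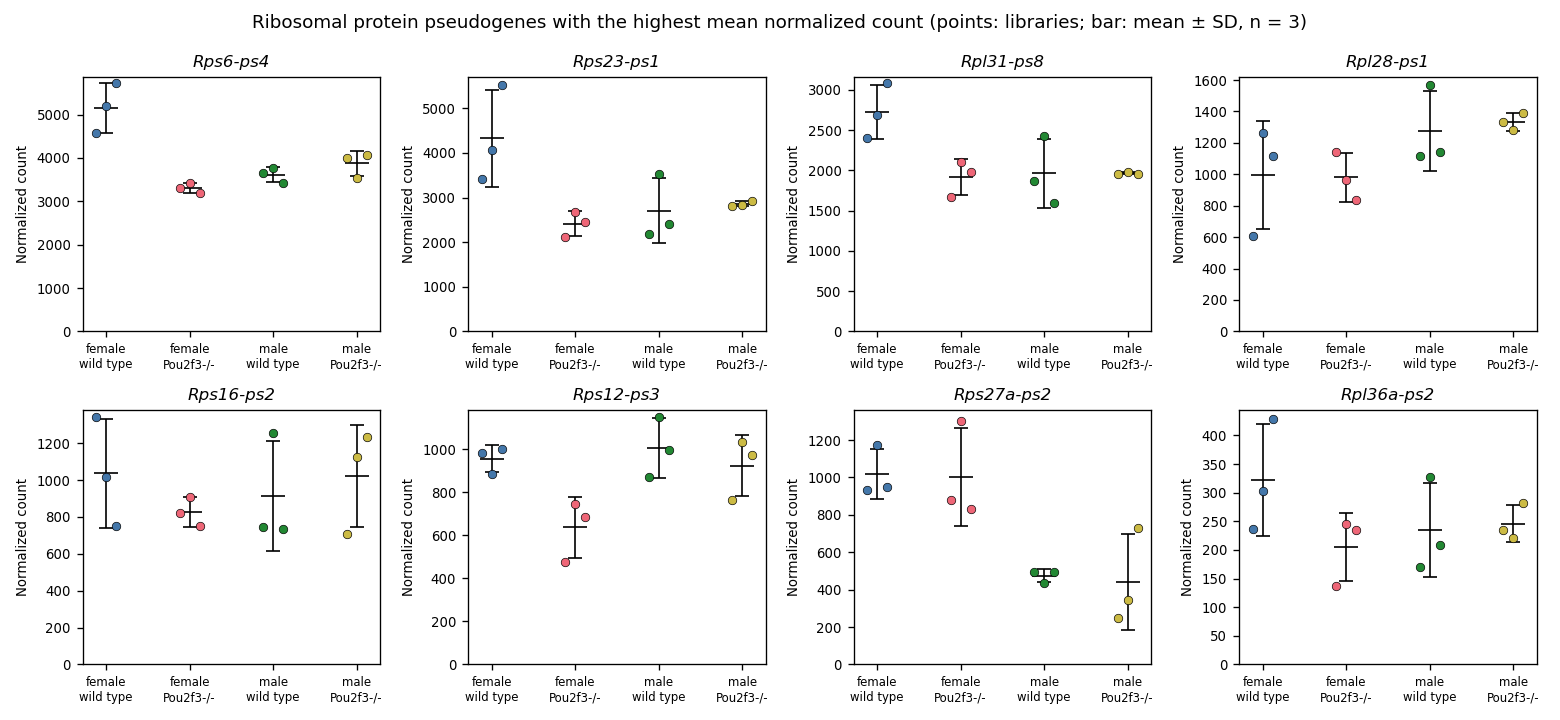
Normalized counts (y axis, from 0) of the 8 pseudogenes with the highest mean, with 1 point per library and the mean ± SD (n = 3) of each group of females and males. Wild-type females lie above Pou2f3-/- females without overlap in Rps6-ps4, Rps23-ps1, Rpl31-ps8 and Rps12-ps3, and both female groups lie above wild-type males in Rps27a-ps2.

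The division of counts between such a copy and its parent differed from pair to pair. Rps6-ps4 held 51.4 to 64.9% of the counts that it and Rps6 had together, Rps23-ps1 59.5 to 64.9% and Rpl31-ps8 62.8 to 71.1%. Rpl28-ps1 held 19.96 to 46.5%, with 19.96, 32.1 and 25.2% in wild-type females, 28.3 to 39.2% in Pou2f3-/- females and 39.9 to 46.5% in males. Rps12-ps3 held 23.9 to 51.3% and Rps16-ps2 12.4 to 27.2%. Rps12l1, which also holds every such stretch of Rps12-ps3, does not enter that share. Sequence alone cannot tell the 2 members of such a pair apart over the pseudogene's length, so each share is a division made by the counting and not a measured transcription of the pseudogene. Per kilobase of annotated transcript, Rps6-ps4 was at a mean level of 92.0 CPM and Rps6 at 53.9, whereas Rps12-ps3 was at 38.4 and Rps12 at 58.6.

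As a description over the 12 libraries, log2 normalized counts of pseudogene and parent correlated at r = 0.96 for Rps23-ps1, 0.89 for Rpl31-ps8 and 0.68 for Rps6-ps4, but at -0.06 for Rps12-ps3 and -0.28 for Rpl28-ps1. Each pair shares libraries, depth and reads of equal sequence. The members most like Rps6-ps4 over the 12 libraries were Rps23-ps1 (r = 0.90), Rpl31-ps8 (0.84), Rps19-ps2 (0.81), Rpl23a-ps3 (0.71) and Rpl36a-ps2 (0.71), of which Rps19-ps2 and Rpl23a-ps3 were under the low-count filter.

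Among the 3 pseudogenes that rose in Pou2f3-/- females, Rpl10-ps6 and Rpl35a-ps2 had low counts in every library. Rpl10-ps6 had normalized counts of 31.5, 11.7 and 4.52 in wild-type females and 49.6, 65.0 and 119 in Pou2f3-/- females. In males the values were 48.4, 54.2 and 11.5 in wild type and 32.6, 28.1 and 23.6 in Pou2f3-/-. The female groups did not overlap, and the male groups did. It rose by 2.24 on the log2 scale (SE 0.64, adjusted p = 0.016), while its parent Rpl10, which encodes a late-joining large-subunit protein, gave -0.27 (SE 0.17, adjusted p = 0.22). The pseudogene lies within an exon of Ide, the gene of insulin-degrading enzyme, on the same strand, and all of its 543 stretches of 100 bases occur in an Ide transcript and 443 in Rpl10. Ide gave -0.48 in females (SE 0.30, adjusted p = 0.23). Without wild-type female 2, wild-type female 3 or Pou2f3-/- female 3, the call of Rpl10-ps6 was lost, with adjusted p-values of up to 0.073.

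Rpl35a-ps2 overlaps no other gene of the table. It had 2.25, 5.19 and 7.53 normalized counts in wild-type females and 15.0, 22.3 and 12.4 in Pou2f3-/- females. Males gave 9.99, 11.5 and 11.5 in wild type and 5.60, 2.81 and 6.35 in Pou2f3-/-. The groups did not overlap in either sex, with the knockout higher in females and lower in males. No other tested pseudogene showed this (of all genes tested, 25.2% were higher without overlap in females and 7.95% lower in males). The share of all genes with both is not given, so this count is no result about the pseudogenes. Rpl35a-ps2 rose by 1.76 in females (SE 0.53, adjusted p = 0.020) and gave -1.14 in males (SE 0.51, adjusted p = 0.41). Its parent Rpl35a fell by 0.54 in females (adjusted p = 0.022). Other genes hold 79.1% of its 100-base stretches, among them Rpl35a with 134 of 234. The female call was lost without wild-type female 1 or 2 or Pou2f3-/- female 1 or 2, without the low-count filter and with the replicate number as a block, with adjusted p-values of up to 0.090.

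Rps2-ps10, on chromosome 18, is a copy of the small-subunit gene Rps2 with 5 substitutions, and it lies within the single exon of the lncRNA gene Gm58349 on the same strand. It had 0, 97.3 and 64.8 normalized counts in the wild-type females and 83.9, 222 and 63.5 in the Pou2f3-/- males, and it was at 0 in all Pou2f3-/- females and wild-type males. Gm58349, whose transcript holds all 780 of its 100-base stretches, had 97.8, 0 and 0 in wild-type females and 50.8, 60.2 and 58.2 in Pou2f3-/- females. The male libraries were at 67.6, 126 and 69.3 in wild type and 62.5, 0 and 10.9 in Pou2f3-/-. In 10 of the 12 libraries exactly 1 of the 2 was at 0. Rps2-ps10 passed the low-count filter only through the Pou2f3-/- males, the group where it was highest, so its values are a description and its p-values support nothing. Taken alone, Rps2-ps10 was at least 16.1-fold lower in Pou2f3-/- than in wild-type females (adjusted p = 0.014), and at least 51.0-fold higher in Pou2f3-/- than in wild-type males, which did not pass (adjusted p = 0.11). With the counts of both genes summed, the female log2 fold change was -0.62 (SE 0.38, adjusted p = 0.22) and the male one 0.75 (SE 0.36, adjusted p = 0.46), so that neither comparison passed.

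Rpl7a-ps3 was the faintest of the calls. It had normalized counts of 2.25, 19.5 and 13.6 in wild-type females and 0, 0 and 3.72 in Pou2f3-/- females. In males the values were 10.8, 2.46 and 4.12 in wild type and 8.39, 1.87 and 9.99 in Pou2f3-/-. The female groups overlapped. It passed the low-count filter only with the wild-type females, the group where it was highest, and with both male groups, so its p-value supports nothing. No Pou2f3-/- female had more than 3 counts, and against that limit per library it was at least 3.49-fold lower in Pou2f3-/- females (adjusted p = 0.047). Of 19 other settings, 10 ended the call, with adjusted p-values of up to 0.15. Rpl7a, its parent, fell by 0.47 (adjusted p = 0.017).

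**Figure D3:**
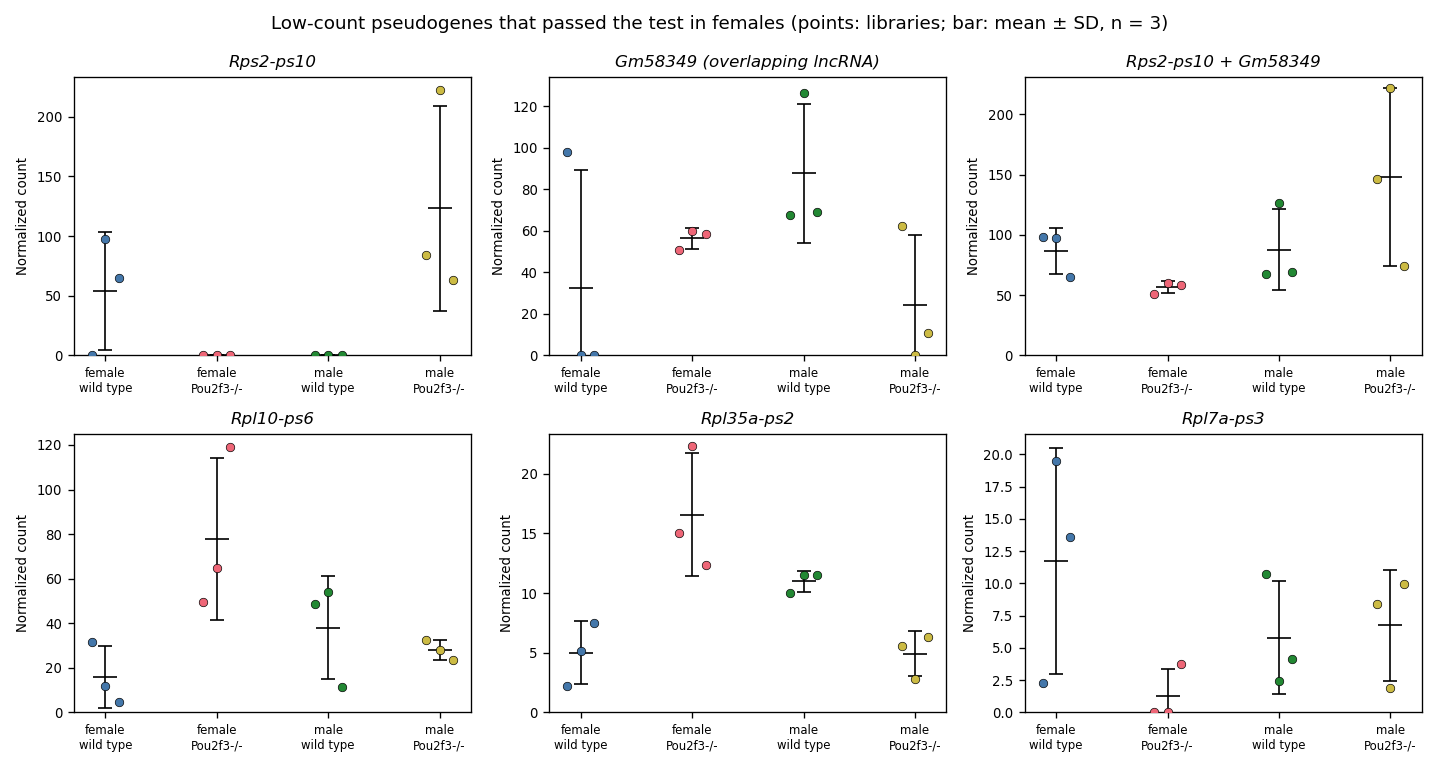
Normalized counts (y axis, from 0) of Rps2-ps10, of the overlapping Gm58349, of their sum, and of Rpl10-ps6, Rpl35a-ps2 and Rpl7a-ps3, with 1 point per library and the mean ± SD (n = 3) of each group. In 10 of the 12 libraries exactly 1 of Rps2-ps10 and Gm58349 is at 0, while their sum stays between 50.8 and 222, and Pou2f3-/- females lie above wild-type females without overlap in Rpl10-ps6 and Rpl35a-ps2 but not in Rpl7a-ps3.

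Among the 7 tested pseudogenes identical to the parent, 4 fell in females and 0 rose, where 19.3% of all genes were lower and 17.6% higher, and all 7 had a negative log2 fold change, with a median of -0.59. Among the 32 with a substitution, 3 rose, the 2 lower calls were those of Rps2-ps10 and Rpl7a-ps3, whose p-values support nothing, and the fold change was positive in 13 and negative in 18, with a median of -0.23. All 42 parents had a negative fold change, so sharing the parent's sign, in 7 of the 7 and in 18 of the 32, only restates these counts. Of all 17893 genes tested, 8610 had a negative fold change. The 2 classes were not tested against each other, and reads are shared most in the first.

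**Figure D4:**
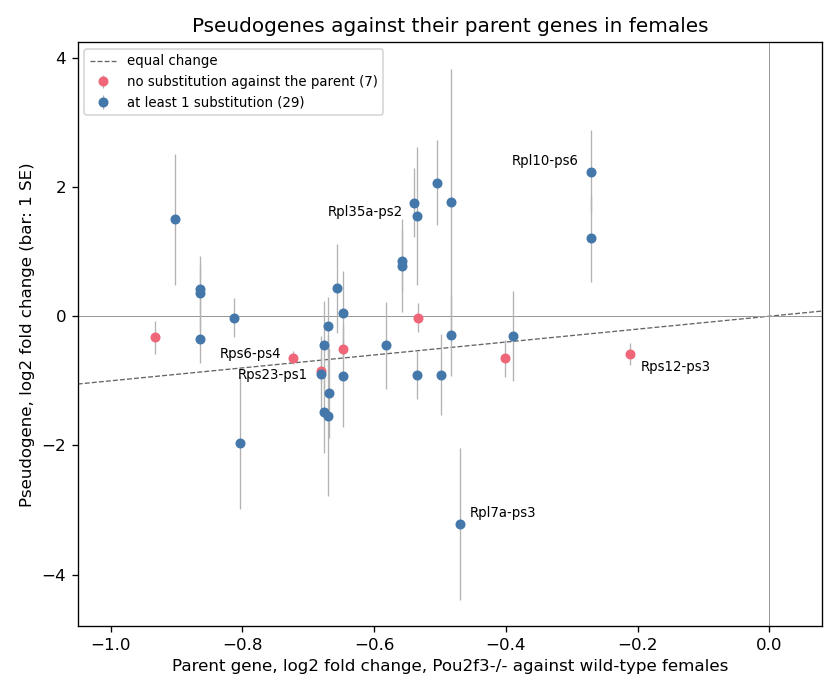
Log2 fold change between Pou2f3-/- and wild-type females of each tested pseudogene (y axis, bar of 1 SE) against that of its parent gene (x axis), for the 36 pseudogenes with counts in both female groups; the dashed line marks equal change. The 7 copies without a substitution lie between -0.84 and -0.02, and every parent lies below 0.

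In males, 0 of the 39 tested pseudogenes passed the test between Pou2f3-/- and wild type with edgeR, where 0.235% of all genes did. An unadjusted p under 0.05 was found for 2 of the 39, beside 2056 of all 17893 genes. DESeq2 called 1 of the 39, given here without its share of all genes, so this count is no result about the pseudogenes. The median log2 fold change of the 39 was -0.11, beside -0.04 over all genes and 0.09 over the 42 parents, of which 0 passed. The 2 were Rps2-ps10 and Rpl35a-ps2, which were also the only tested pseudogenes without overlap between the male groups, higher and lower in Pou2f3-/- in turn (of all genes tested, 6.51% were higher and 7.95% lower without overlap). The interaction, which tests whether the genotype difference differs between the sexes, passed for 6 of the 39, 3 of them positive and 3 negative, where 25.7% of all genes passed, 13.4% positive and 12.4% negative. Without wild-type male 1 or Pou2f3-/- male 3 it passed for 3 of the 39, given without the share of all genes. The interaction with all libraries follows. It was -0.74 for Rps6-ps4 (SE 0.14, adjusted p = 0.0055) and -0.92 for Rps23-ps1 (SE 0.27, adjusted p = 0.026), the latter lost without wild-type male 1 or 3 or Pou2f3-/- male 3 (adjusted p up to 0.070). On library totals the female and male differences behind them were -0.13 and -0.02 for Rps6-ps4 and -0.32 and 0.00 for Rps23-ps1, beside 0.53 and -0.15 for the median gene. Among those that rose in females it was 2.90 for Rpl35a-ps2 (adjusted p = 0.015) and 2.67 for Rpl10-ps6 (adjusted p = 0.040), the latter lost in 10 of 19 other settings with adjusted p-values of up to 0.11. Only Pou2f3-/- females and wild-type males, its higher groups, brought Rpl35a-ps2 past the low-count filter. A positive interaction rests on those same groups, so the interaction p-value of Rpl35a-ps2 supports nothing. The interaction call of Rps2-ps10, which the filter kept only through the Pou2f3-/- males, did not hold for the sum with Gm58349 (adjusted p = 0.069). Among parents the interaction passed for 35 of 42, each negative, and for 19 and 23 without wild-type male 1 and 3.

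Between wild-type males and females, 6 of the 39 passed, 5 of them lower and 1 higher in males, where 36.5% of all genes passed, 16.0% lower and 20.5% higher. Rps27a-ps2 had 932, 1174 and 951 normalized counts in wild-type females and 878, 1304 and 829 in Pou2f3-/- females. Among males it was at 495, 438 and 493 in wild type and 246, 344 and 732 in Pou2f3-/-. Every female was above every male. It was lower in wild-type males by a log2 fold change of -1.10 (SE 0.31, adjusted p = 0.013), which stayed negative on library totals at -0.19, and Rps27a gave -0.52 (adjusted p = 0.046). Within females it gave -0.02 between genotypes (SE 0.30, adjusted p = 0.97) while Rps27a fell by 0.81 (adjusted p = 0.0052).

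Rps6-ps4, Rps23-ps1 and Rpl31-ps8 gave -0.51 (SE 0.10, adjusted p = 0.0017), -0.68 (SE 0.19, adjusted p = 0.013) and -0.47 (SE 0.14, adjusted p = 0.022) between wild-type males and females, and on library totals these 3 differences turned to 0.39, 0.20 and 0.41 with the median gene at 0.95. The calls of Rps23-ps1 and Rpl31-ps8 were lost without wild-type female 3 or wild-type male 1 or 3, with adjusted p-values of up to 0.066 and 0.10. Rpl10-ps5, within an intron of Nup93 on the same strand, had 3.37, 9.08 and 4.52 normalized counts in wild-type females and 25.4, 24.6 and 19.8 in wild-type males. It was higher in males by 2.02 (SE 0.65, adjusted p = 0.026), and Nup93 gave 0.54. This call was lost without wild-type female 1 or 3 or wild-type male 1 or 2, with adjusted p-values of up to 0.093. In all, 3 of the 39 passed without wild-type female 3, given without the share of all genes. The fifth lower call was that of Rps2-ps10, kept by the filter as said above, which was at least 22.4-fold lower in males (adjusted p = 0.0099) but at 0.01 (adjusted p = 0.98) when summed with Gm58349. Over the 39 the median was -0.44, beside 0.06 over all genes and -0.44 over the parents, of which 27 of 42 were lower (16, 12 and 16 without wild-type female 3, wild-type male 1 and wild-type male 3), and on library totals these 3 medians were 0.45, 0.95 and 0.44. The median of the 39 moved with single libraries left out and shrank without the low-count filter, with values in the last section.

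Counts summed over all 118 pseudogenes, the low ones included, came to 262, 299.97 and 340.2 CPM on TMM-adjusted library sizes in wild-type females and to 192, 227 and 218 in Pou2f3-/- females. Wild-type males were at 205, 264 and 212 and Pou2f3-/- males at 219, 229.6 and 247. Wild-type females were highest, with 1 wild-type male inside their range. The female difference was -0.50 on the log2 scale (SE 0.13) and became 0.01 on library totals, where the 118 held 199 to 213 counts per total, as unadjusted CPM, in wild-type females and 198 to 216 in Pou2f3-/- females. For the 42 parents the same sum went from 3854 ± 532 to 2364 ± 116 CPM (mean ± SD, n = 3), a log2 difference of -0.70 (SE 0.12). Per 100 parent counts, which no scaling affects, there were 7.95, 7.68 and 7.81 pseudogene counts in wild-type females and 8.39, 9.10 and 9.43 in Pou2f3-/- females, beside 7.66 to 8.02 in wild-type males and 7.11 to 7.93 in Pou2f3-/- males. Only the Pou2f3-/- females stood apart.

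The 61 pseudogenes with mostly sequence of their own were summed separately, although they may share up to 50% of their 100-base stretches with other genes. They held 3.36, 3.23 and 3.46 CPM in wild-type females and 4.10, 4.53 and 4.26 in Pou2f3-/- females. Males gave 2.86, 3.35 and 3.54 in wild type and 2.38, 3.59 and 3.82 in Pou2f3-/-. Pou2f3-/- females were thus above all other libraries, while the other 3 groups overlapped. The female difference was 0.36 on the log2 scale (SE 0.05), the opposite direction to that of all 118. Relative to parent counts they were 2.08-fold higher in Pou2f3-/- females. These sums rest on 133 to 270 counts per library and were not tested, since the 61 were chosen with the data in view.

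**Figure D5:**
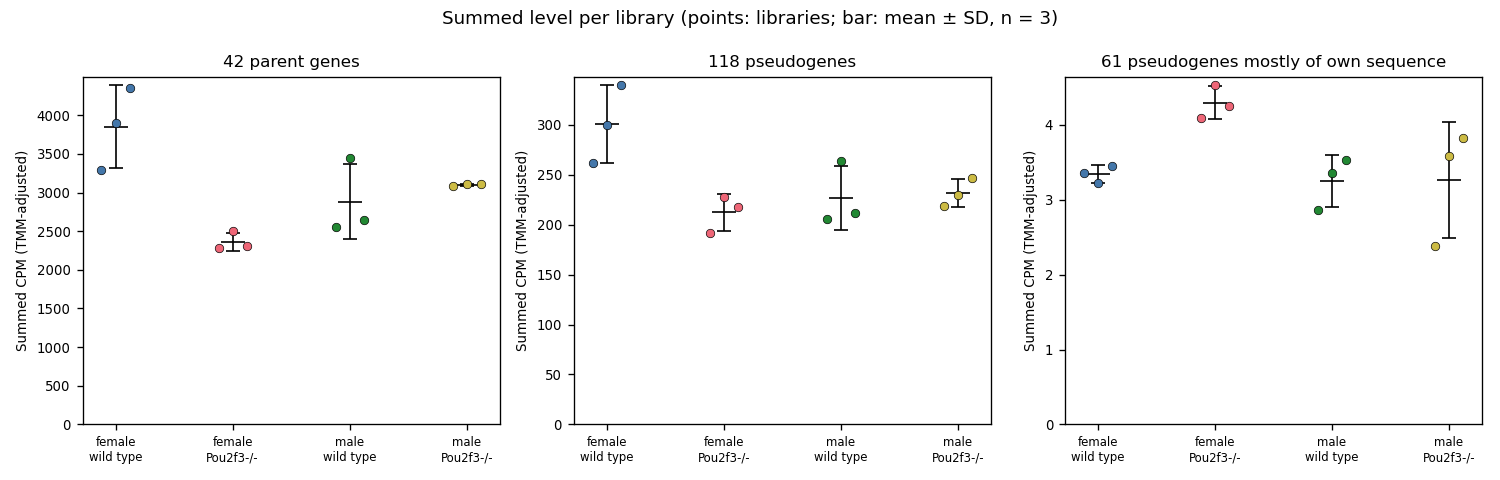
Summed TMM-adjusted CPM (y axis, from 0) of the 42 parent genes, of all 118 pseudogenes and of the 61 pseudogenes with at least 50% of their 100-base stretches in no other gene, with 1 point per library and the mean ± SD (n = 3) of each group. Wild-type females lie above Pou2f3-/- females in the first 2 panels and below them in the third.

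The Rpl31, Rps2 and Rpsa families had 3 tested members each, and of these 9 pseudogenes Rpl31-ps8 and Rps2-ps10 passed in females, where 36.9% of all genes tested did, the latter with the limits of filter and overlap given above. Rpl31-ps9 and Rpl31-ps14, with 2 and 6 substitutions, gave -0.93 (adjusted p = 0.39) and 0.06 (adjusted p = 0.96). Rps2-ps6 and Rps2-ps8 gave -1.48 (adjusted p = 0.086) and -0.45 (adjusted p = 0.65). Copies of Rpsa, the gene of the laminin receptor protein of the small subunit, gave -0.35 for Rpsa-ps10, 0.42 for Rpsa-ps9 and 0.35 for Rpsa-ps2, with adjusted p-values of 0.51, 0.40 and 0.67. In the Rpl31 family, Rpl31-ps8 held 98.6% of the pseudogene counts.

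Some copies had counts in only part of the libraries of a group, and the 3 given here were chosen after their values were seen. Rpl21-ps15, which shares 100-base stretches with 39 other genes, was above 0 in 5 libraries only. It had 0, 0 and 247 normalized counts in wild-type females and 0, 0 and 822 in Pou2f3-/- females, and its female log2 fold change was 1.76 (SE 2.07, adjusted p = 0.54). In both female groups 1 library held all the counts. Rpl10a-ps1 is a copy of Rpl10a without a substitution, and an exon of another gene overlaps it on the same strand. All 555 of its 100-base stretches occur both in Rpl10a and in the coding gene Akr1cl. It had estimated counts of 176 in wild-type male 1 and 631 in wild-type male 3. In the 10 other libraries it was at 0, so it was under the low-count filter. Rps7-ps3, whose 100-base stretches all occur in Gm61310, had 70.8, 3.89 and 91.9 normalized counts in wild-type females and 0, 15.5 and 27.3 in Pou2f3-/- females. These groups overlapped, and the log2 fold change was -1.96 (SE 1.02, adjusted p = 0.15), or -1.44 (adjusted p = 0.18) for the sum with Gm61310.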

How the data were processed

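Whole submandibular glands were sequenced as paired reads of 100 bases. The labels name polyA RNA, whereas the protocol describes a ribosomal RNA-depleted stranded total RNA library. The authors deposited estimated counts per gene from Salmon 1.10.1 on GRCm39, and these were rounded for testing; their table of normalized counts was not used here. Salmon divides reads that fit several transcripts, so counts of near-identical copies depend on that division. With edgeR 4.0.16 (R 4.3.3), genes passing filterByExpr (17893) were scaled by TMM and tested by the quasi-likelihood test with 1 mean per group over 12 libraries and Benjamini-Hochberg adjustment over all genes. Normalized counts are counts divided by TMM-adjusted library size and multiplied by its mean. On simulated female differences, 66.5% of 200 genes changed 3-fold were recovered. Positions and sequences came from a later Gencode release on the same build. Sequence shared between genes was counted as identical stretches of 100 bases on the sense strand, and alignments scored 2 per match and -3 per mismatch (Biopython 1.88). Named were the 8 pseudogenes with the highest mean, those past a test in any comparison, those without overlap in both genotype comparisons, and the families with 3 tested members. The pseudogenes and gene lists were chosen with earlier results of these data known. A result that these rules name is not reported here. No p-value is given for sums. Alternatives were DESeq2 1.42.0, other scalings and filters, a model within each sex, the replicate number as a block, each library left out, and sums over other members. Each library comes from 1 mouse, and p-values measure the spread between mice.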

Additional observations from a re-analysis of the deposited data

Results flagged for a closer look

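The genotype difference differed between the sexes, by the interaction term of edgeR's quasi-likelihood test, for the pseudogenes below. It was -0.74 on the log2 scale for Rps6-ps4 (adjusted p = 0.0055), with differences of -0.64 in females and 0.10 in males. It was -0.92 for Rps23-ps1 (adjusted p = 0.026), with -0.84 and 0.08. On library totals these differences were -0.13 and -0.02 for Rps6-ps4 and -0.32 and 0.00 for Rps23-ps1, with the median gene at 0.53 in females and -0.15 in males. Rpl35a-ps2 gave 2.90 (adjusted p = 0.015), with 1.76 and -1.14, and Rpl10-ps6 gave 2.67 (adjusted p = 0.040), with 2.24 and -0.44. Rpl35a-ps2 passed the low-count filter only through Pou2f3-/- females and wild-type males, where it was higher, so its interaction p-value supports nothing. Rps2-ps10 gave a fitted -18.69 (adjusted p = 0.0050), a value that depends on the prior count because 6 libraries in 2 groups were at 0. It passed the low-count filter only through the Pou2f3-/- males, where it was highest, so this p-value supports nothing, and summed with Gm58349 it was -1.37 (adjusted p = 0.069). Leaving out 1 library or setting the replicate number as a block ended the interaction call of Rpl10-ps6 in 10 of 19 other settings.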

How the results depend on the processing

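Some of the calls described held under the other normalizations, filters, tools and left-out libraries tested. These were the calls of Rps6-ps4 in 3 comparisons, Rps23-ps1 and Rps12-ps3 in females, and Rps27a-ps2 between the sexes. The interaction call of Rpl35a-ps2, with the limit of the filter given above, held in the 19 settings that tested it. A minimum of 10 counts per library removed Rpl35a-ps2, which had 2.26, 4.37 and 4.57 estimated counts in wild-type females. Library totals were computed without a test, and there Rps6-ps4 turned from -0.51 to 0.39 between the sexes, Rps27a-ps2 moved from -1.10 to -0.19, and the female values of Rps6-ps4, Rps23-ps1 and Rps12-ps3 shrank to -0.13, -0.32 and -0.10. Under a minimum of 10 counts per library, 4 pseudogenes were called in females and 2 in the interaction. In males 3 were called without the low-count filter, 1 by a model within each sex, 1 with DESeq2 and 1 with the replicate block. Counts of calls in this section are given without the share of all genes called under the same setting. They show only how the number of calls moved and are no result about the pseudogenes. Same-numbered mice did not deviate together (r from -0.113 to 0.05 in females and from -0.135 to 0.09 in males). No pairing by number was seen, though 3 mice per group are too few to exclude one. The replicate block gave 8 calls in females and 5 in the interaction. Between wild-type males and females no such fit was made. Leaving out 1 library at a time gave 5 to 11 pseudogene calls in females, 0 to 1 in males, 3 to 9 in the interaction (3 without wild-type male 1 or Pou2f3-/- male 3) and 3 to 8 between the sexes (3 without wild-type female 3). It gave medians of -0.44 to 0.038 in the interaction and -0.52 to -0.25 between the sexes, and 19 to 40 parent calls in the interaction and 12 to 37 between the sexes. Without the low-count filter these medians were -0.085 (interaction) and -0.078 (between the sexes). The summed level of the 118 changed in females from -0.50 to 0.007 on library totals, to 0.068 without the copies of no substitution and to 0.36 over the 61 of mostly own sequence, and between the sexes from -0.41 to 0.48, -0.65 and -0.048. The ratio to parents without those copies was 0.77 in females, -0.15 in males and -0.23 between the sexes, and without the largest pseudogene it was 0.052 between the sexes. The choices of members without those copies and of the 61, and the sum with Gm58349, which turned Rps2-ps10 between the sexes to 0.014, were chosen after seeing the data. For the scalings and libraries the cause was not tested. A limit of 10% of counts in 1 library left no pseudogene to test. Low depth limits the 87 pseudogenes under 100 counts.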
